A study of Homo sapiens with 4 samples.

Results

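The STAT genes encode transcription factors that wait in the cytoplasm until a cytokine receptor is engaged, and the JAK kinases are the enzymes bound to that receptor which phosphorylate them. To describe how this signalling axis stood in leukemia cells after the loss of LDB1, 9 genes were taken by symbol from the deposited table of 28412 genes. They were the 6 STAT genes STAT2, STAT3, STAT4, STAT5A, STAT5B and STAT6 and the 3 kinase genes JAK1, JAK2 and TYK2. They were picked by name, with earlier results of these data known. RNA-seq was performed on total RNA of human cells labelled NB4, an acute promyelocytic leukemia line. In 2 libraries the cells carried the lentiviral control vector sh-NC, labelled control and without treatment, and in the other 2 they carried a lentiviral vector, sh-LDB1, against LDB1, the adaptor protein of the LMO2 complex. Of the 3 hairpins listed in the study's methods, the one in these libraries is not named by their labels, and effects of the hairpin itself and of LDB1 loss cannot be told apart. No source used here says whether the 2 libraries of a group came from separate cultures, and p-values then measure only the spread between libraries, which may be technical.

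After phosphorylation STAT proteins pair up, enter the nucleus and bind the promoters of their target genes. Erythropoietin and thrombopoietin receptors use JAK2 and the close relatives STAT5A and STAT5B, type I interferon receptors use JAK1 and TYK2 with STAT2, receptors that contain gp130 act through JAK1 and STAT3, and interleukin 4 acts through STAT6. In blood, STAT5 is known for its part in red cell production and in myeloid leukemia. RNA levels say nothing of phosphorylation, which was not measured.

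Reads recovered from the values themselves summed to between 14070314 and 16269120 per library. The depth implied by the FPKM scaling was between 14746656 and 16182674 reads. The recovered sums lay above that depth in both sh-NC libraries and below it in both sh-LDB1 libraries. Between 12910 and 13443 genes had at least 1 FPKM. FPKM counts fragments per kilobase, relative to the depth of a library. LDB1 itself measured 135.1 and 120.1 FPKM in sh-NC against 10.2 and 9.47 FPKM in sh-LDB1, 7.73% of the control mean, so the target went the way of the labels. The cell type was checked with marker lists, and the libraries did not look like promyelocytes. In sh-NC the 14 erythroid markers summed to 4003 and 4167 FPKM, with HBZ, an embryonic globin, at 1543 and 1600 FPKM. ELANE, neutrophil elastase and a defining promyelocyte gene, was at 0 in both sh-NC libraries and at 0.182 and 0 FPKM in sh-LDB1. The cells are therefore called by their label only. In sh-LDB1 the sum of the erythroid markers was 388.5 and 352.4 FPKM, with 13 of 13 tested members called lower, some of which, AHSP and SLC4A1 among them, passed the filter on low values only through sh-NC, and that of the 9 promyelocyte and granulocyte markers with a value went from 12.8 and 11.7 to 46.7 and 43.1 FPKM. Of 4 lymphoid markers with a value 2 were tested and 0 called, but CD3D, a T cell receptor subunit, measured 23.2 and 20.1 FPKM in sh-NC and 42.2 and 45.2 FPKM in sh-LDB1, a log2 fold change of 0.98 with a limma adjusted p of 0.000783 that passed the fold threshold under 3 other scalings. Of 4 megakaryocyte markers 2 were tested and 0 called by limma, with fold changes of 0.14 each, and PF4, a platelet chemokine, was at 0 in 3 of the 4 libraries. These shifts accompanied every result below, and their part in any of them was not tested. In bulk RNA, fewer cells of a type and less RNA per cell cannot be told apart.

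Loss of LDB1 went with a change of the leading STAT RNA. STAT5A and STAT5B were lower in sh-LDB1, at 21.8% and 33.9% of their control means, and JAK2 was lower at 44.6%, while STAT2 was 3.22-fold higher. A gene was called at an adjusted p below 0.05 in limma, a linear model fitted on log2(FPKM + 1) over the 13300 genes whose mean reached 1 FPKM, together with a fold change above 2 or below 0.5 on that scale. Of the 8 members that could be tested, 1 was called higher and 3 lower, against 9.5% of all tested genes called higher and 10.3% called lower, 19.8% either way. By adjusted p alone, 4 were higher and 4 lower, beside 29.9% and 37.4% of all tested genes, 67.4% either way. The groups did not overlap for any of the 8, which was so for 84.6% of all tested genes. The median log2 fold change was -0.26 over the 8 members and -0.08 over all tested genes.

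**Figure D1:**
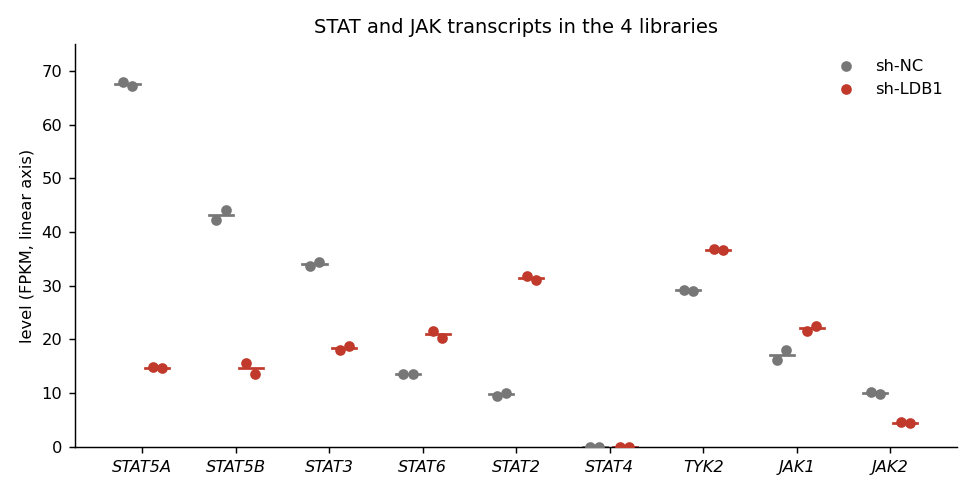
FPKM of each of the 9 genes (linear vertical axis) in the 4 libraries, with gray points for sh-NC, red points for sh-LDB1 and a line at each group mean (n = 2). STAT5A and STAT5B stand highest in sh-NC and meet near 14.7 and 14.6 FPKM in sh-LDB1, STAT2 moves up past them, and STAT4 lies on the axis.

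STAT5A and STAT5B are neighbours from a gene duplication and encode nearly the same activator. STAT5A, ENSG00000126561, measured 67.9 and 67.2 FPKM in sh-NC and 14.8 and 14.6 FPKM in sh-LDB1. Both control libraries were far above both knockdown libraries, and replicates differed by at most 1.27%. The log2 fold change was -2.13 ± 0.0398 (SE), with a limma adjusted p of 6.77e-05, and it rested on 1273 to 6324 reads per library. STAT5B, ENSG00000173757, measured 42.2 and 44.2 FPKM in sh-NC and 15.6 and 13.6 FPKM in sh-LDB1. The groups stood clear of each other, although the knockdown libraries were 14.7% apart, the widest gap between replicates among the tested members. Its log2 fold change was -1.50 ± 0.0773, with a limma adjusted p of 0.000209. STAT5A exceeded STAT5B by 1.61 and 1.52 times in the control libraries, and by 0.947 and 1.07 times in the knockdown libraries, where the order of the pair was not the same in both. Among all tested genes STAT5A stood at percentile 95.2 of level in sh-NC and at percentile 75.6 in sh-LDB1.

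The pair lies end to end on chromosome 17 (GRCh38), and this bears on how their reads are counted. STAT5B spans 42199176 to 42288633 on the minus strand, and STAT5A spans 42287547 to 42311943 on the plus strand. Through STAT5B transcripts with a far upstream start, the gene bodies overlap by 1087 bases, of which 415 are exonic in both, out of 6385 exonic bases of STAT5A and 12110 of STAT5B. The transcripts also share sequence, since 10.6% of the 50-base stretches of STAT5A occur in STAT5B and 7.80% of those of STAT5B occur in STAT5A, the only 1 of 36 pairs of members to share any. How the authors assigned such reads, and whether strand was used, is not given in the sources used here, so the split between both genes is uncertain to that extent.

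LDB1 is recruited to DNA with GATA factors and TAL1, which read the letters AGATAA or TGATAA and the E-box CAGCTG, so the promoters of the 4 called members were searched for these letters, for the STAT site TTCNNNGAA and for the interferon-stimulated response element. RefSeq (GRCh38.p14) gave 17 windows of 250 bases before a start site for the 9 members, and each was read on both strands. The 4 sequences shown are 1 stretch per called member, taken from these windows and lying outside every annotated exon. Other such stretches of STAT5A and JAK2 are not shown. The sequences are written from 5′ to 3′ along the gene, with CAGCTG in capitals. The STAT5A, JAK2 and STAT2 stretches abut the outermost annotated start of their gene, and the STAT5A stretch also lies in an intron of STAT5B. For STAT5A and JAK2 that start lies 951 and 882 bases before the start of the transcript marked canonical in the annotation. For STAT2 it is the canonical start. The STAT5B stretch lies inside its own gene body, just before the start of most of its annotated transcripts.
STAT5A, chr17:42287297-42287546, plus strand: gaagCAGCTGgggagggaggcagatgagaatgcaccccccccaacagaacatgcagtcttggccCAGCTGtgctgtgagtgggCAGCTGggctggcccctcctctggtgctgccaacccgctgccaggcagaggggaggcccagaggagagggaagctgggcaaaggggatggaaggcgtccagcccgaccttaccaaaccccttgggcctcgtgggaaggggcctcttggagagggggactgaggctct
STAT5B, chr17:42276414-42276627, minus strand: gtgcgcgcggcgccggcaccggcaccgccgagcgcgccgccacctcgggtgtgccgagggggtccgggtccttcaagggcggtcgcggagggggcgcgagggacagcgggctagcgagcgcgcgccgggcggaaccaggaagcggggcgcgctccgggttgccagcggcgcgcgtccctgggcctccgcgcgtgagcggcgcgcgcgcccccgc
JAK2, chr9:4984140-4984389, plus strand: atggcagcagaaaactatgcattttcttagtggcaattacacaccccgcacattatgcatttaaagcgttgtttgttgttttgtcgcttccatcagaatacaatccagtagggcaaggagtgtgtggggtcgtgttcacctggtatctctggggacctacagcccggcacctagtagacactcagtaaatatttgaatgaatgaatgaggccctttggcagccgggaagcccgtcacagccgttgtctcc
STAT2, chr12:56360204-56360357, minus strand: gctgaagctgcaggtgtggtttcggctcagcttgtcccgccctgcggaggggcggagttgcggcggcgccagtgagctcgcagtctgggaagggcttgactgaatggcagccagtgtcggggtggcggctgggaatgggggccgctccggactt
The STAT5A stretch held CAGCTG 3 times, and the other stretches shown held none of the 5 motifs. The window before the canonical STAT5A start, all of it exonic and so not shown, held CAGCTG 1 time. A JAK2 stretch outside exons that is not shown, chr9:4984836-4985032, held CAGCTG 1 time. Over all windows, CAGCTG was found in 5 of the 17, namely the 3 of STAT5A, some of which overlap, 1 of JAK2 and that of TYK2, and in 14.0% of all 35116 RefSeq windows. AGATAA was found only in the window of STAT6, against 9.17% of all windows. TGATAA, TTCNNNGAA and the interferon element were in 0 member windows, and in 6.66%, 6.57% and 3.02% of all windows. A match is a string of letters and not a bound site, and binding was not analysed here.

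STAT2, ENSG00000170581, is the partner of IRF9 in the complex that answers type I interferon, and it was the called member that rose. It measured 9.41 and 10.1 FPKM in sh-NC and 31.7 and 31.1 FPKM in sh-LDB1. Every knockdown library was above every control library. The log2 fold change was 1.59 ± 0.0539, with a limma adjusted p of 0.000108, on 911 to 3107 reads per library. It lies on chromosome 12 from 56341597 to 56360203, minus strand. IRF9, its DNA-binding partner, measured 0.798 and 0.786 FPKM in the controls and 0.494 and 0.854 FPKM after knockdown, below the filter, so it was not tested.

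STAT3, ENSG00000168610, relays interleukin 6 and related cytokines. It measured 33.6 and 34.4 FPKM in sh-NC and 18.1 and 18.7 FPKM in sh-LDB1, with no overlap. Its log2 fold change of -0.85 ± 0.0451 passed the adjusted p of limma at 0.000222 and stayed short of the fold threshold. STAT6, ENSG00000166888, relays interleukin 4 and interleukin 13. It measured 13.6 and 13.6 FPKM in sh-NC and 21.6 and 20.3 FPKM in sh-LDB1. Its log2 fold change of 0.59 ± 0.0511 likewise passed the limma adjusted p alone, at 0.000812. STAT4, ENSG00000138378, relays interleukin 12 and is best known from T and NK cells. Its reads numbered 1 and 0 in the control replicates and 0 and 1 in the knockdown replicates, so it was not detectable in either group beyond the 3 reads that a count of 0 allows, worth 0.0387 to 0.0425 FPKM. This floor covers counting error only.

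JAK2, ENSG00000096968, is the kinase of the erythropoietin receptor and was the only kinase called. It measured 10.2 and 9.88 FPKM in sh-NC and 4.56 and 4.37 FPKM in sh-LDB1. Replicates lay within 4.40% of each other, and the groups stood apart. The log2 fold change was -1.01 ± 0.0565, with a 95% interval from -1.16 to -0.86 and a limma adjusted p of 0.000252. The interval spans the fold threshold of 2, so the fall was clear and its place beyond the threshold was not. Without sh-NC replicate 1 the log2 fold change was -0.99, and without sh-LDB1 replicate 2 it was also -0.99, and either choice ended the call, as did each of 3 other scalings of the libraries (-0.92 to -0.86). JAK2 had the fewest reads of the tested members, 408 to 1014, which gives a counting error of up to 4.95%.

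TYK2, ENSG00000105397, and JAK1, ENSG00000162434, are the kinases of the interferon receptors, and JAK1 also serves the gp130 and common gamma chain receptors. TYK2 measured 29.2 and 29.1 FPKM in sh-NC and 36.8 and 36.6 FPKM in sh-LDB1. Its replicates were the tightest of the kinases, at most 0.623% apart, and its log2 fold change was 0.32 ± 0.0391, with a limma adjusted p of 0.00221. JAK1 measured 16.2 and 18.0 FPKM in sh-NC and 21.6 and 22.6 FPKM in sh-LDB1. The gap between its control libraries was 11.2%, and its log2 fold change was 0.35 ± 0.067, with a limma adjusted p of 0.00939. Neither kinase came near the fold threshold. Without sh-LDB1 replicate 2, JAK1 lost its adjusted p, which became 0.0631 in limma at a log2 fold change of 0.32.

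**Figure D2:**
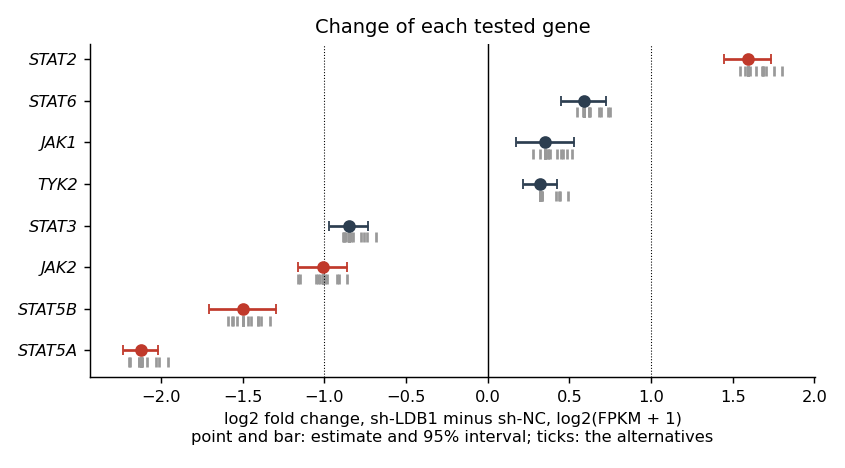
Log2 fold change of the 8 tested genes, sh-LDB1 minus sh-NC on the log2(FPKM + 1) scale, with 95% intervals as bars, red for the called genes, and gray ticks for the alternative analyses. Ticks stay on the same side of 0 for each gene, and those of JAK2 lie on both sides of the dotted line at -1. Ticks of alternatives that leave the fold change as it is repeat the main estimate.

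Because FPKM is scaled per length, members can be ranked within a library. In sh-NC the order of mean level was STAT5A, STAT5B, STAT3, TYK2, JAK1, STAT6, JAK2, STAT2 and STAT4, and only JAK2 and STAT2 overlapped. In sh-LDB1 it was TYK2, STAT2, JAK1, STAT6, STAT3, STAT5A, STAT5B, JAK2 and STAT4, and only STAT5A and STAT5B overlapped. The summed level of the 6 STAT genes went from 166.7 and 169.4 FPKM to 101.8 and 98.4 FPKM. STAT5A and STAT5B together made up 66.0% and 65.7% of this sum in the controls, but 29.9% and 28.7% after knockdown. STAT2 went from 5.64% and 5.97% to 31.2% and 31.6%, and STAT6 from 8.16% and 8.01% to 21.2% and 20.6%. The share of STAT3 moved little, from 20.2% and 20.3% to 17.7% and 19.1%. The sum of the 3 kinases was 55.6 and 57.0 FPKM in sh-NC and 63.0 and 63.5 FPKM in sh-LDB1, in which JAK2 went from 18.3% and 17.3% to 7.24% and 6.88%. For each of these sums and shares the groups did not overlap, but an exact permutation test of 2 libraries against 2 cannot go below a two-sided p of 0.333, which is the value each gave.

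**Figure D3:**
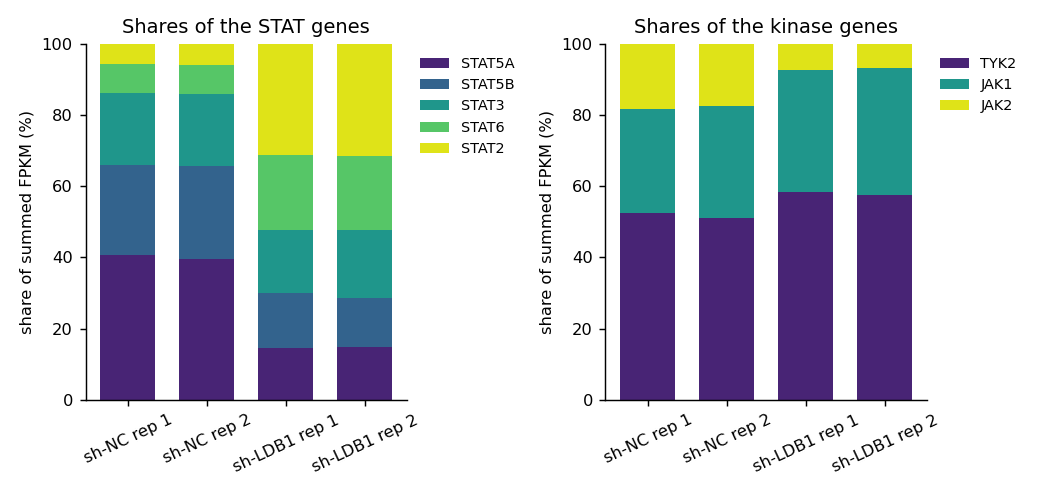
Share of the summed FPKM in percent (vertical axis) taken by each STAT gene, left, and each kinase gene, right, in the 4 libraries. STAT5A and STAT5B fill 66.0% and 65.7% of the control STAT bars but 29.9% and 28.7% of the knockdown bars, and STAT4 is too low to be seen.

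The other genes of the pathway were then counted by lists of receptors, ligands, inhibitors, partners and known target genes. Each gene counted once, 97 were tested, of which 27 (27.8%) were called higher and 9 (9.28%) lower, against 9.5% and 10.3% of all tested genes. Of these 27, IL6R, IL23A, SH2B2 and GBP2 averaged under 1 FPKM in sh-NC and passed the filter only through sh-LDB1, where they are high, so their counts are tied to the filter. The receptor list, with 16 tested genes, had 3 called higher and 2 lower and a median log2 fold change of 0.02. EPOR, the erythropoietin receptor and itself an erythroid marker, measured 19.1 and 17.7 FPKM in sh-NC and 8.58 and 8.33 FPKM in sh-LDB1, a log2 fold change of -1.04 ± 0.0596. That call was lost without sh-NC replicate 1 (-0.98) and under each of 3 other scalings (-0.94 to -0.88), which left 1 receptor lower. LEPR, the leptin receptor, also fell (-1.54). CSF3R, the receptor of granulocyte colony-stimulating factor and itself a granulocyte marker, averaged 1.09 FPKM in the controls and 8.98 FPKM after knockdown, a log2 fold change of 2.25. IL10RA (2.04), the receptor of interleukin 10, also rose. IL6R, the receptor of interleukin 6, measured 0.211 and 0.137 FPKM in sh-NC and 3.05 and 3.17 FPKM in sh-LDB1 (1.81). Of the ligands 3 were tested, and 2 were called higher, IL23A (1.34), a subunit of interleukin 23, and CTF1 (1.02), cardiotrophin 1. CTF1 lost its call without sh-NC replicate 1 (0.92) or without sh-LDB1 replicate 1 (0.89), which left 1 ligand.

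Of 19 tested inhibitors 3 were called higher and 1 lower, with a median of 0.28. PIAS3 (1.22), an inhibitor of STAT3, SOCS7 (1.22), of the family of cytokine suppressors, and USP18 (1.12), which restrains interferon receptors, rose, and SH2B3 (-1.04), an adaptor that restrains JAK2, fell. Without sh-NC replicate 2 the log2 fold change of SH2B3 was -0.96, short of the fold threshold. Under each of 3 other scalings (-0.95 to -0.88) its call was lost, and 0 inhibitors were lower by limma. With 0.1 or 0.01 added to FPKM in place of 1, limma called 2 lower, SH2B3 and PIAS2, as did voom on recovered reads. PIAS2, another listed inhibitor, was at -0.92 with 1 added, and at -1.51 and -1.63 with 0.1 and 0.01. Without sh-LDB1 replicate 1 the log2 fold change of USP18 was 0.96, also short of the threshold. CISH, the feedback gene that STAT5 is best known to induce, measured 29.6 and 27.9 FPKM in sh-NC and 54.8 and 56.5 FPKM in sh-LDB1, which is higher while STAT5A and STAT5B were lower, at a log2 fold change of 0.93 that did not reach the fold threshold. Under each of 3 other scalings it did, which made 4 inhibitors and 4 STAT5 targets higher. SOCS2, another STAT5 feedback gene, averaged 14.3 FPKM in the controls and 9.72 FPKM after knockdown, a log2 fold change of -0.51 that was not called. Of 9 tested partners and adaptors 2 were called higher, STAM2 (1.45), which sorts receptors on endosomes, and SH2B2 (2.25), an adaptor of JAK2, at 0.104 and 0.142 FPKM in sh-NC and 4.53 and 4.19 FPKM in sh-LDB1. The list median was 0.49.

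The target lists did not share a direction. Of 17 tested STAT5 target genes 3 were called higher and 4 lower, with a median of -0.10, close to that of all genes. After scaling to the summed FPKM, 4 were higher and 2 lower, since PIM2 (-0.98) and TFRC (-0.94), the transferrin receptor, lost their calls, so the balance of the list depends on scaling. MYC, a growth-promoting transcription factor, measured 159.1 and 160.9 FPKM in sh-NC and 27.3 and 28.1 FPKM in sh-LDB1, a log2 fold change of -2.49. CCND1 (-1.47), a G1 cyclin, and PIM2 (-1.16), a survival kinase, also fell. BCL6, a repressor that STAT5 is known to hold down, measured 2.85 and 2.93 FPKM in sh-NC and 32.3 and 32.2 FPKM in sh-LDB1, a log2 fold change of 3.10. ID1 (2.60), an inhibitor of helix-loop-helix factors, and IRS2 (1.12), an insulin receptor substrate, rose as well. Of 13 tested STAT3 target genes 6 were called higher and 2 lower, with a median of 0.92. BCL3 (2.58), CEBPD (2.23) and CEBPB (1.98), regulators of transcription, led the rise, and MYC, which is on both lists, and BIRC5 (-1.18), an inhibitor of cell death, fell. Of 2 tested STAT6 target genes 0 were called by limma or by voom on recovered reads, although by limma's p alone, adjusted, 1 was higher and 1 lower.

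Interferon target genes had 9 members called higher and 1 lower among 27 tested, with a median log2 fold change of 0.79 against -0.08 over all genes. GBP2, IFIT3 and IFI27 averaged 0.230, 0.673 and 0.994 FPKM in sh-NC and were tested only because of their level in sh-LDB1. The list median is therefore tied in part to the filter. IRF7, a transcription factor of the interferon response, measured 3.08 and 2.50 FPKM in sh-NC and 21.6 and 19.2 FPKM in sh-LDB1, a log2 fold change of 2.50. PSMB9 (2.24), an immunoproteasome subunit, rose too. GBP2, a guanylate-binding protein, measured 0.167 and 0.292 FPKM in sh-NC and 3.62 and 3.64 FPKM in sh-LDB1 (1.92), and CMPK2 (-1.25), a mitochondrial nucleotide kinase, fell. ISG15, a ubiquitin-like modifier, was at the fold threshold with 24.8 and 25.5 FPKM in sh-NC and 51.3 and 51.3 FPKM in sh-LDB1, and lost its call without sh-NC replicate 1 (0.98). The 3 other scalings gave between 10 and 13 interferon targets higher. The list had 46 genes with a value, and 17 of them were below 1 FPKM in all 4 libraries, among them IFIT1, a classic interferon gene, at 0.067 and 0.0147 FPKM in sh-NC and 0.230 and 0.258 FPKM in sh-LDB1. Of the listed STAT5 targets 9 of 21, and of the STAT3 targets 3 of 13, were also on another list.

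**Figure D4:**
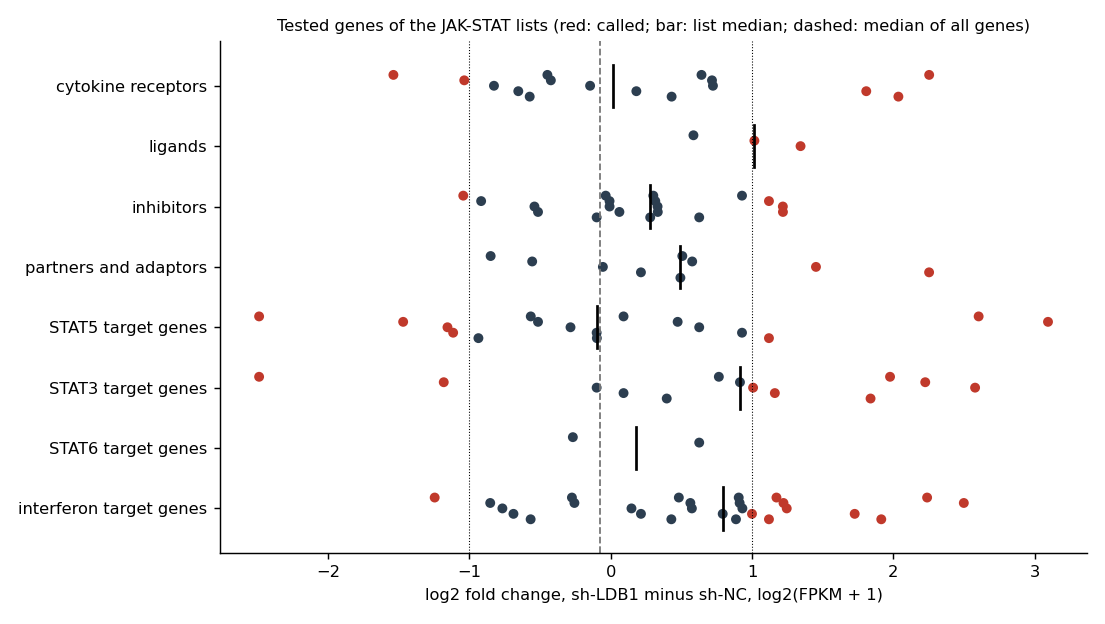
Log2 fold change (horizontal axis, sh-LDB1 minus sh-NC) of each tested gene on 8 pathway lists, red where called, with a bar at the list median and a dashed line at the median of all tested genes, -0.08. The medians of STAT3 target genes (0.92) and interferon target genes (0.79) lie to the right of that line, and that of STAT5 target genes (-0.10) lies close to it.

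Whether genes next to the STAT genes moved too was looked at within 250 kb on either side. STAT3 lies 1380 bases beyond STAT5A, from 42313324 to 42388540 on the minus strand. Around the STAT5B, STAT5A and STAT3 locus, 24 neighbours were tested, of which 1 was called higher and 5 lower, with a median of -0.38. The long noncoding genes AC099811.4 (-1.70), AC099811.1 (-1.62) and AC099811.5 (-1.30) lie inside the STAT5B gene body, the first on the opposite strand and the others on the strand of STAT5B, so their reads cannot be told apart from those of unspliced STAT5B. KAT2A, a histone acetyltransferase, averaged 37.6 FPKM in the controls and 11.8 FPKM after knockdown (-1.60), and CNP, a nucleotide phosphodiesterase, fell as well (-1.41). HSD17B1P1, a pseudogene, rose (1.49). CAVIN1, the tested neighbour next beyond STAT3, had a log2 fold change of -0.56 and was not called.

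Around STAT2, 23 neighbours were tested, with 3 called higher and 1 lower and a median of 0.11. IL23A, which lies next to STAT2, measured 0.625 and 0.857 FPKM in sh-NC and 3.31 and 3.51 FPKM in sh-LDB1 (1.34), RNF41 (1.05) and RBMS2 (1.00) were called higher, and PA2G4, a regulator of growth, fell (-2.10). STAT6 lies 735204 bases beyond STAT2 on the same chromosome, from 57095408 to 57132139 on the minus strand. Of its 10 tested neighbours 3 were called higher, LRP1 (2.33), STAC3 (1.99) and NDUFA4L2 (1.03), and 2 lower, TAC3 (-1.94) and NEMP1 (-1.35). Over the 3 loci, 7 of 57 tested neighbours (12.3%) were called higher and 8 (14.0%) lower, beside 9.5% and 10.3% of all genes. The 8 include AC099811.4, AC099811.1 and AC099811.5, inside the STAT5B gene body, whose reads cannot be told apart from those of unspliced STAT5B. The share called lower may then in part repeat STAT5B. Of the 7, IL23A, RBMS2, LRP1 and NDUFA4L2 averaged under 1 FPKM in sh-NC and were tested only because of their level in sh-LDB1.

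**Figure D5:**
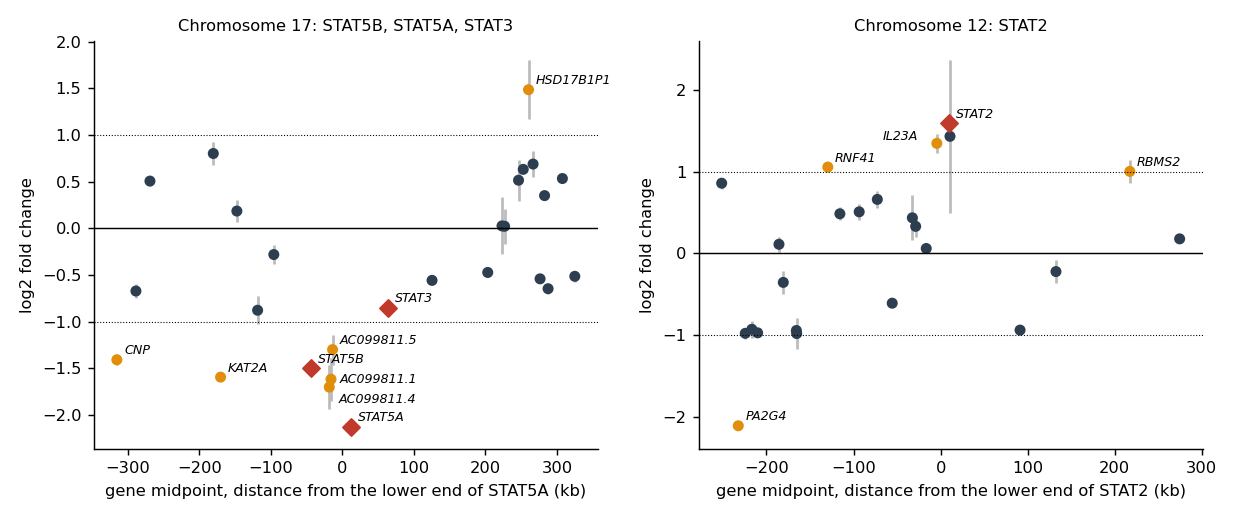
Log2 fold change (vertical axis, sh-LDB1 minus sh-NC, bars are SE) against distance in kb from the lower end of STAT5A, left, or STAT2, right. Red diamonds are STAT genes, orange points called neighbours and dark points the rest. Near STAT5A the STAT5B, STAT5A and noncoding points lie low together, and neighbours of STAT2 lie on both sides of 0.

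The kinase genes lie apart from these loci and from each other. JAK1 is on chromosome 1 from 64833223 to 65067754, minus strand, JAK2 on chromosome 9 from 4984390 to 5129948, plus strand, and TYK2 on chromosome 19 from 10350533 to 10380608, minus strand. STAT4 is on chromosome 2 from 191029576 to 191151596, minus strand. Of the 13174 exonic bases of JAK1, 647 also belong to the noncoding gene LINC01359 on the same strand, and of the 7298 of STAT6, 69 belong to NAB2 and 59 to LRP1 on the opposite strand, so reads there are uncertain.

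The genes with the profile nearest to STAT5A over the 4 libraries, by Euclidean distance of centred log2(FPKM + 1), were KCNH2 (0.0239), a potassium channel, CDC45 (0.031), a replication factor, and TMED10 (0.0373), a trafficking protein. Nearest to STAT2 were SULT1A2 (0.0213), a sulfotransferase with near-identical relatives whose reads are uncertain, CETN2 (0.032), a centrin, and HLA-K (0.0428), a pseudogene. With 4 libraries in 2 groups, such likeness is little more than a like fold change.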

How the data were processed

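RNA-seq libraries of 2 sh-NC and 2 sh-LDB1 samples were analysed, grouped and numbered by their labels. Reads had been filtered and mapped with HISAT2 2.0.5 to hg38 per the submitters' processing notes, and the authors deposited 1 table of FPKM per gene and library. The counting tool, the annotation and the use of strand are not given in the sources used here. The authors called genes with DESeq2.

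Levels were taken as log2(FPKM + 1), so the fold change of low genes is understated. Genes whose mean reached 1 FPKM were compared with limma 3.58.1 in R 4.3.3 (eBayes with trend, no covariate, Benjamini-Hochberg adjustment over 13300 genes). Groups of 2 allow no outlier test. Lists are described by counts and medians without a set test. Reads were recovered as whole multiples of what 1 read is worth in the deposited FPKM (tolerance 0.0001), with gene lengths fitted near those of the GENCODE annotation on GRCh38, which held 28193 of the 28412 genes. The values came out whole for 28063 genes, and the totals rest on these lengths. Other steps used Python 3.11.15, numpy 2.4.6 and pandas 2.3.3.

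The members and lists were chosen with earlier results of these data known. Named were all members, LDB1, up to 3 called genes with the largest rise and up to 3 with the largest fall of each list, called neighbours within 250 kb, and the 3 nearest profiles of STAT5A and STAT2. CISH, SOCS2, PIAS2, ISG15, IFIT1, IRF9, ELANE, CD3D, PF4, TFRC, CAVIN1 and the genes named for the filter were added after their values were seen. The steps were tested on simulated data (13165 genes), where 86 of 95 tested 3-fold changes and 35 of 99 tested 1.5-fold changes were recovered by adjusted p, and 7 of 12747 unchanged genes were called. The simulation changed only a small part of the genes. It gave every gene the same extra spread beyond counting error and no difference in scale between groups. Its rates of recovery and of false calls therefore need not hold for these data. Alternatives were other pseudocounts, filters, scalings and thresholds, no trend, the replicate block, leaving out each library, and voom on recovered reads.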

Additional observations from a re-analysis of the deposited data

How the results depend on the processing

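Of 135 fold changes of the 8 tested members and LDB1 under 15 alternatives, 129 kept their direction and their side of the adjusted p, 6 lost the adjusted p, and 0 reversed. The other filters, no trend, the replicate block and treat leave the fold changes as they are by construction, so under these no reversal was possible. Testing against a fold of 2 (limma treat) gave an adjusted p of 1 for STAT3, STAT6, JAK1, JAK2 and TYK2. JAK2 stayed short of the fold threshold after scaling to the summed FPKM (-0.86), the upper quartile (-0.91) or the median of ratios (-0.92), which left 2 members called lower. Scaling to the summed FPKM raised the median of all genes by 0.14 on the log2 scale, and turned 1264 higher and 1371 lower calls into 1602 and 1001. Leaving out each library gave 1 to 1 members called higher and 2 to 3 lower, 25 to 28 pathway genes higher and 8 to 9 lower, 5 to 9 neighbours higher and 8 to 10 lower, and differences of -37.2 to -36.0 percentage points for the STAT5 share and -11.2 to -10.3 for the JAK2 share. With no fold threshold, 4 members, 56 pathway genes and 21 neighbours were higher, and 28 pathway genes and 23 neighbours lower. Under treat, 15 pathway genes and 2 neighbours were higher, and 3 and 5 lower. Scaling to the summed FPKM left 5 pathway genes lower, a filter of 5 FPKM left 3 neighbours higher, and pseudocounts of 0.1 and 0.01 and voom on recovered reads, chosen after seeing the data, each gave 11 neighbours higher. Beyond fewer genes tested under the filter, the cause was not tested. Whether same-numbered libraries of the 2 groups shared a preparation is not given in the sources used here. Their deviations from the group means correlated at 0.0196 over genes, which cannot settle it. With the replicate block the same numbers were called, 1 member higher and 3 lower, 27 pathway genes higher and 9 lower, and 7 neighbours higher and 8 lower (1274 higher and 1386 lower over all genes). Depth limits STAT4, with at most 1 read.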
